A study of Mus musculus with 6 samples.

Results

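Clone 2 of an HP1 alpha and HP1 beta double knockout (DKO) was compared with clone 1 of the same knockout in mouse embryonic stem (ES) cells. The members are the 4 RNA-seq libraries labelled as these clones, 2 of each, out of 6 libraries in all. The other 2 libraries come from a control clone that carries floxed (F/F) alleles of Hp1α (gene Cbx5) and Hp1β (gene Cbx1) and is labelled wild type. Both DKO clones have both genes deleted. All 3 clones were kept in a medium with KSR (knockout serum replacement), LIF (leukaemia inhibitory factor), the GSK3 inhibitor CHIR99021 at 3 µM and the MEK inhibitor PD184352 at 0.8 µM. Each genotype label thus stands on 1 or 2 clones, and what a clone carries besides the deletion cannot be told apart from the clone. Whether replicate libraries started from separate cultures is not stated, so the p-values measure the spread between these libraries, which may be technical.

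HP1 proteins bind histone H3 methylated at lysine 9 and take part in compacting heterochromatin and silencing genes and repeats. Cbx5, Cbx1 and Cbx3 encode the alpha, beta and gamma forms. A clone is grown from a single cell, and ES cell clones of 1 genotype are known to differ in imprinted genes and in chromosome content, which makes the comparison of 2 clones of the same knockout a measure of how far a knockout signature depends on the clone.

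Depth was 27876620 and 27822664 counted reads in clone 1, 24628872 and 26772203 in clone 2, and 34641560 and 32327537 in the control. The root mean square difference between the log2 levels of 2 libraries was 0.406 within clone 1 and 0.394 within clone 2, and 0.483 to 0.497 between libraries of different DKO clones. A library of either DKO clone differed from a control library by 0.505 to 0.548. ES cell markers were high in all libraries, with Pou5f1, the gene of the pluripotency factor Oct4, at 615 to 668 CPM (read counts scaled to a common library size). Of 11 defining genes of other lineages, the neural gene Sox1 was at 4.95 to 13.4 CPM, the epithelial keratin gene Krt8 at 2.13 to 7.28 CPM, the mesoderm gene T at 1.22 to 2.76 CPM and the collagen gene Col1a1 at 1.16 to 2.13 CPM. The others reached at most 1.36 CPM (Pax6), with Elf5 of trophoblast at 0 in 4 of the 6 libraries.

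The deleted genes did not separate the clones. Cbx5 was at 813 and 808 CPM in the control libraries, 205 and 194 CPM in clone 1, and 191 and 200 CPM in clone 2. The log2 change from clone 1 to clone 2 was -0.03 (SE 0.067, adjusted p = 0.839). Cbx1 was at 227 and 223 CPM in the control, 49.3 and 43.9 CPM in clone 1, and 44.9 and 44.5 CPM in clone 2, a log2 difference between the DKO clones of -0.06 (SE 0.083, adjusted p = 0.738). Both genes were low in both DKO clones. Cbx3, the remaining HP1 gene, was at 455 and 452 CPM in clone 1 and 490 and 450 CPM in clone 2, against 321 and 344 CPM in the control. Its DKO libraries overlapped (log2 difference 0.05, adjusted p = 0.735).

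Of 14337 genes tested, 381 were higher and 554 lower in clone 2 than in clone 1, which is 2.66% and 3.86% of the tested genes and 6.52% together (edgeR quasi-likelihood F test on the 4 libraries, Benjamini-Hochberg adjusted p below 0.05). A difference of 2-fold or more was reached by 86 of the higher and 42 of the lower genes. The median size of a called change was 0.49 on the log2 scale. The libraries of the 2 clones did not overlap for 51.7% of all tested genes, so the absence of overlap is common here. Leaving out a library changed the number of calls strongly. Without clone 2 replicate 1 the fit to the remaining 3 libraries called 0 genes, and without clone 2 replicate 2 it called 1 higher, A2m, and 1 lower, DQ267101. Without clone 1 replicate 1 or 2 it called 368 and 580 genes. Unadjusted p below 0.05 was reached by 1984 and 1840 genes on leaving out clone 2 replicate 1 or 2, and by 2535 and 2943 genes for those of clone 1; all 4 fits have 1 residual degree of freedom. A fit that also holds the control libraries called 270 genes when clone 2 replicate 1 was left out and 294 when replicate 2 was, and 394 and 581 on leaving out replicate 1 or 2 of clone 1. A call is said below to hold without any 1 library where it stayed in that fit whichever clone library was left out. The phrase covers the called genes selected by a fixed rule and other list members. It refers only to that fit, which takes part of its spread from the control libraries and was added after the data were seen. In the main test on the clones alone no call stayed in this way, because leaving out clone 2 replicate 1 ended all of them.

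Neither clone was the one that departed from the control throughout. Each contrast against the control uses the same 2 control libraries. Clone 1 against the control called 1298 genes higher (8.79% of 14771) and 954 lower (6.46%), and clone 2 against the control called 1165 higher (7.89%) and 1046 lower (7.08%). Among the 381 genes higher in clone 2, 119 were called against the control in clone 1 only, 112 in clone 2 only, 56 in both in the same direction, 6 in opposite directions and 88 in neither. Among the 554 lower genes these counts were 201, 155, 77, 6 and 115. Over all 14337 tested genes they were 1039, 1003, 1173, 12 and 11110. Clone 1 only made up 7.25% of all tested genes, 31.2% of the higher and 36.3% of the lower. In the same order, clone 2 only made up 6.996%, 29.4% and 27.98%, and neither 77.5%, 23.1% and 20.8%. Choosing genes that differ between the clones favours a call against the shared control in 1 of them, so these shares partly follow from the selection. By distance of the mean log2 level, clone 2 lay farther from the control for 433 of the 935 called genes (46.3%) and clone 1 for 502. Among the 121 lower genes of chromosome 3, included here, clone 2 lay farther for 22 and clone 1 for 99. For the 50 lower genes of chromosome 14 these counts were 31 and 19. Over all tested genes clone 2 lay farther for 50.1%.

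**Figure D1:**
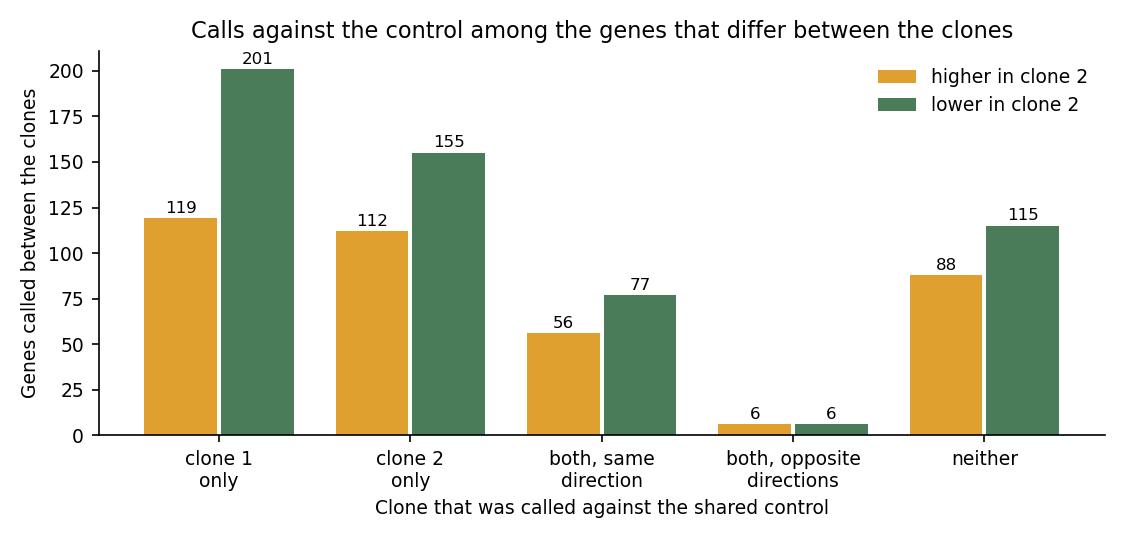
Number of genes called between the DKO clones (y axis), by which clone was also called against the shared control libraries (x axis), for the 381 genes higher (orange) and the 554 genes lower (green) in clone 2. Clone 1 only and clone 2 only are of like height among the higher genes (119 and 112), and clone 1 only is the tallest bar among the lower genes (201). Over all 14337 tested genes, which are not drawn, 1039 were clone 1 only, 1003 clone 2 only and 11110 neither.

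A group of transcripts from the imprinted Dlk1-Dio3 domain of chromosome 12 was strongly reduced in clone 2. In this domain the non-coding RNAs Meg3, Rian and Mirg, which host small nucleolar RNAs and microRNAs, are made from the maternal chromosome, and Dlk1, Rtl1 and Dio3 from the paternal one. Rian (chr12:109603945-109661716, GRCm38.p6) was at 218 and 234 CPM in the control, 214 and 263 CPM in clone 1, and 64.1 and 64.4 CPM in clone 2. Clone 1 overlapped the control, and both clone 2 libraries were far below. The level in clone 1 was 3.72 times that in clone 2 (log2 -1.89, SE 0.094, adjusted p = 4.68e-06).

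The other RNAs of the maternal strand had the same order. Meg3 (chr12:109540996-109571729) was at 39.6 and 28.6 CPM in the control, 30.6 and 34.2 CPM in clone 1, and 9.91 and 11.8 CPM in clone 2 (log2 -1.57, SE 0.12, adjusted p = 8.37e-05). Mirg (chr12:109734981-109749458) was at 20.8 and 14.2 CPM in the control, 20 and 18.1 CPM in clone 1, and 4.53 and 4.83 CPM in clone 2 (log2 -2.02, SE 0.14, adjusted p = 4.13e-05). DQ267101, a small nucleolar RNA gene inside Rian, was at 62.1 and 54.7, 63.9 and 67.7, and 19.18 and 18.81 CPM in the same order (log2 -1.79, SE 0.082, adjusted p = 3.77e-06). In each of these 3 the lower clone 1 library was above both clone 2 libraries, and clone 1 was within 0.17 log2 of the control. The calls of Rian, Meg3, Mirg and DQ267101 held without any 1 library. AF357425, another small RNA gene within Rian, fell as well, from 6.85 and 11.3 CPM in clone 1 to 3.29 and 4.42 CPM in clone 2 (log2 -1.23, adjusted p = 0.0162), a call that ended without clone 1 replicate 2 (0.0707 in the fit with the control) or clone 2 replicate 1 (0.1). AF357355 and DQ267102 were uneven within clone 1, at 2.83 and 21.2 CPM and at 1.04 and 37.6 CPM, and did not pass (adjusted p = 0.186 and 0.448).

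The microRNA genes Mir1906-1 and Mir3072, called lower in clone 2, lie inside 2 of these host RNAs. RefSeq lists 60 microRNA genes between Meg3 and Mirg, and how many of these were tested is not given here. The mature sequences are shown with their seeds, the bases that pair with target RNAs, in capitals (bases 2 to 8); they are RefSeq entries on GRCm38.p6, in RNA letters, plus strand:
mmu-miR-1906 (chr12:109544588-109544609, inside Meg3): uGCAGCAGccugaggcagggcu
mmu-miR-3072-5p (chr12:109747893-109747914, inside Mirg): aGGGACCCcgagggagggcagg
mmu-miR-3072-3p (chr12:109747928-109747949, inside Mirg): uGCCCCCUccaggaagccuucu
The 3 seeds differ from each other. The Mir3072 gene was at 5.33 and 4.37 CPM in the control, 5.38 and 5.21 CPM in clone 1, and 0.883 and 1.5 CPM in clone 2 (log2 -2.14, SE 0.26, adjusted p = 0.00147). Mir1906-1 was at 1.78 and 2.29, 2.08 and 2.44, and 0.482 and 0.525 CPM, or 12 and 14 reads in clone 2 (log2 -2.16, SE 0.34, adjusted p = 0.0051). In both genes clone 1 was close to the control and clone 2 low, as in the hosts. The libraries hold long RNA, and such reads can come from the host transcript, so they are no measure of the mature microRNA.

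The 250 bases before the start of Meg3 (chr12:109540746-109540995, plus strand, RefSeq on GRCm38.p6) are shown because this end of the gene lies at a region known to be methylated on the paternal chromosome; CG pairs, the bases that carry such methylation, are in capitals:
Meg3: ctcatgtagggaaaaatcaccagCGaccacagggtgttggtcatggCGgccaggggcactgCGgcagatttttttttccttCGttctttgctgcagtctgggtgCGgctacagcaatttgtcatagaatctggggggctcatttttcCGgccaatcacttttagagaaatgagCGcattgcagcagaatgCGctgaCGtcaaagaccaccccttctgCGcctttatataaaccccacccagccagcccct
The stretch holds 10 CG pairs, a number that 68.2% of the 14287 windows of tested genes reach. DNA methylation was not measured in these libraries.

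Of the paternally expressed genes of the domain, Rtl1 (chr12:109564900-109604418), a retrotransposon-derived gene, was at 18.7 and 11.5 CPM in the control, 9.90 and 15 CPM in clone 1, and 3.01 and 3.64 CPM in clone 2 (log2 -1.90, SE 0.22, adjusted p = 0.00112). Its libraries in clone 1 overlapped the control and those of clone 2 lay below both. The annotated span of Rtl1 overlaps that of Meg3 and the start of Rian, and the strand that was counted is not given in the sources used here, so reads of Rtl1 and of RNA from the other strand cannot be told apart. Dio3, the thyroid hormone deiodinase at the far end, went the other way in its values, at 2.01 and 1.51 CPM in clone 1 and 3.21 and 3.30 CPM in clone 2 with 5.18 and 5.64 CPM in the control, and did not pass between the clones (log2 0.89, SE 0.25, adjusted p = 0.0596).

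**Figure D2:**
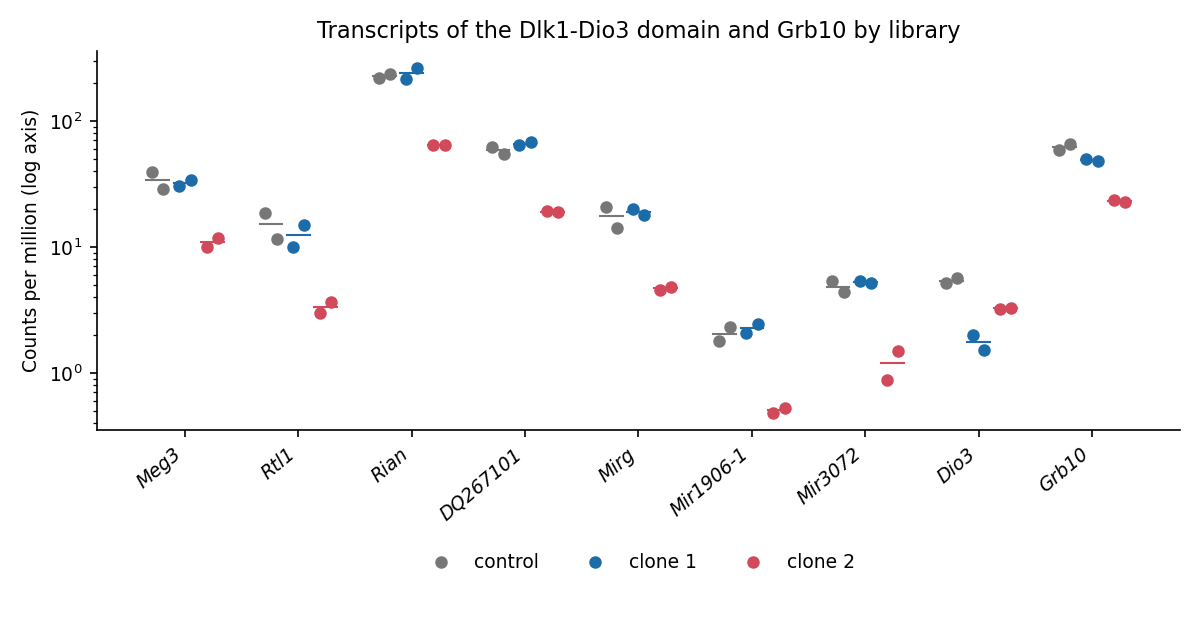
Level of 8 transcripts of the Dlk1-Dio3 domain and of Grb10 in each library, in CPM on a log axis; points are libraries and lines are means of 2. For Meg3, Rtl1, Rian, DQ267101, Mirg, Mir1906-1 and Mir3072 clone 1 (blue) lies at the control (grey) and clone 2 (red) below, as for Rian at 64.1 and 64.4 CPM.

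Other imprinted genes moved one by one. Of 29 tested genes expressed from the maternal chromosome, 8 were lower (27.6%, beside 3.86% of all tested genes) and 2 higher (6.90%, beside 2.66%) in clone 2, with a median log2 change of -0.03 beside 0.0019 over all tested genes. Besides Meg3, Rian and Mirg, the lower genes were Grb10, H19, Cd81, Gnas and Th. Grb10, an adaptor that dampens insulin receptor signalling, was at 59.2 and 66.0 CPM in the control, 50.2 and 48.2 CPM in clone 1, and 23.7 and 22.6 CPM in clone 2 (log2 -1.09, SE 0.083, adjusted p = 8.6e-05). All 3 clones stood apart, and the call held without any 1 library. H19, a growth-restraining non-coding RNA, was at 18.6 and 18.5 CPM in clone 1 and 13.5 and 12.2 CPM in clone 2 (log2 -0.53, adjusted p = 0.0239), and its neighbour Igf2 did not pass (log2 -0.11, adjusted p = 0.816). Th had 16 and 13 reads in clone 1 and 0 and 1 in clone 2. Phlda2 and Phactr2 were the higher genes, at log2 1.17 and 0.78 (adjusted p = 0.0342 and 0.013). The calls of H19, Cd81, Gnas, Th, Phlda2 and Phactr2 each ended without at least 1 library in the fit with the control, with adjusted p up to 0.158, 0.161, 0.246, 0.144, 0.275 and 0.058. The count of 8 was 4, 5, 5 and 4 in the fit with the control when clone 1 replicate 1, clone 1 replicate 2, clone 2 replicate 1 or clone 2 replicate 2 was left out; the genes that held without any 1 library were 4.

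Of 31 tested paternally expressed genes, 4 were lower (12.9%, beside 3.86% of all tested genes) and 1 higher (3.23%, near the 2.66% of all tested genes). The lower genes were Rtl1, Peg13, Jade1 and Gnas, which is imprinted both ways and on both lists. Jade1 lies on chromosome 3, whose genes as a whole were lower in clone 2 (below), and its call ended once every chromosome was centred at its median. Peg13, a non-coding RNA, was at 9.62 and 10.2 CPM in clone 1 and 5.50 and 5.88 CPM in clone 2, with the control at 7.62 and 7.56 CPM between them (log2 -0.80, SE 0.15, adjusted p = 0.0113). Its call ended without clone 2 replicate 1 (adjusted p = 0.0627 in the fit with the control). Slc38a4, an amino acid transporter, was the higher gene (log2 0.29, adjusted p = 0.0254). The calls of Slc38a4 and Jade1 each stayed in 1 of the 4 fits with the control that leave out a clone library, with adjusted p up to 0.143 and 0.183.

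Target genes of p53 were lower in clone 2. The transcription factor p53 responds to DNA damage and other stress and turns on genes for cell cycle arrest, cell death and its own inhibition. Of 29 tested members of a list of its known targets, 15 were lower in clone 2 (51.7%, beside 3.86% of all tested genes) and 0 were higher, and 24 had a negative log2 change. The median was -0.38, beside 0.0019 over all tested genes. The list count in the fit with the control was 13 without clone 1 replicate 1, 14 without clone 1 replicate 2, and 10 without either clone 2 library; in the fit to the clones alone it was 0 without either clone 2 library. Trp53, the gene of p53 itself, was at 189 and 181 CPM in clone 1 and 186 and 189 CPM in clone 2 (log2 0.02, SE 0.064, adjusted p = 0.88).

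Perp, a desmosome component in p53-dependent cell death, had the largest change of the 15. It was at 40.2 and 49.6 CPM in the control, 47.2 and 51.7 CPM in clone 1, and 26.1 and 25.8 CPM in clone 2 (log2 -0.93, SE 0.084, adjusted p = 0.000276). Clone 1 overlapped the control and clone 2 was low. Plk2, a polo-like kinase, was at 105 and 112 CPM in the control, 90.2 and 91.4 CPM in clone 1, and 55.4 and 60.7 CPM in clone 2 (log2 -0.65, SE 0.073, adjusted p = 0.00112), the control highest and clone 2 lowest. Pmaip1, which encodes the death protein Noxa, differed on the other side: 208 and 207 CPM in the control, 325 and 308 CPM in clone 1, and 230 and 219 CPM in clone 2 (log2 -0.50, SE 0.067, adjusted p = 0.00252). Here clone 1 was high and clone 2 was near the control. Psrc1, a spindle protein gene, showed that order as well, with 154 and 174, 214 and 231, and 153 and 141 CPM (log2 -0.60, SE 0.071, adjusted p = 0.00133).

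Cdkn1a, the gene of the cell cycle inhibitor p21, was at 36.8 and 34.7 CPM in the control, 37.3 and 35.7 CPM in clone 1, and 25.8 and 24.5 CPM in clone 2 (log2 -0.54, SE 0.086, adjusted p = 0.00546). Mdm2, whose product degrades p53, was at 260 and 264, 261 and 257, and 201 and 202 CPM (log2 -0.36, SE 0.063, adjusted p = 0.00877). In both genes clone 1 matched the control closely and clone 2 alone was low. Ccng1, cyclin G1, was at 455 and 479, 533 and 524, and 385 and 402 CPM (log2 -0.42, SE 0.066, adjusted p = 0.00498), and Aen, an exonuclease of apoptosis, was at 86.0 and 81.4, 103 and 95.7, and 72.0 and 70.8 CPM (log2 -0.47, SE 0.07, adjusted p = 0.00375). For these the control lay between the DKO clones.

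The other called targets were Btg2, an antiproliferative gene (log2 -0.58), Trp53inp1 (-0.49), Zmat3 (-0.48), Eda2r (-0.43), Tnfrsf10b, a death receptor (-0.41), Sesn2 (-0.38) and Plk3 (-0.38). Perp, Plk2, Psrc1, Btg2, Pmaip1, Trp53inp1, Zmat3, Aen and Ccng1, 9 of the 15, held without any 1 library. The calls of Cdkn1a, Mdm2, Sesn2, Eda2r, Tnfrsf10b and Plk3 each ended without at least 1 library in the fit with the control, with adjusted p up to 0.0538, 0.062, 0.0833, 0.0877, 0.148 and 0.242. Of the 15, 2 lie on chromosome 3 and 1 on chromosome 14, which were lower in clone 2 as a whole, and 16 of the list were called once every chromosome was centred at its median. Against the shared control, clone 1 had 7 of the 29 targets called higher and 1 lower, with a median of 0.08. Clone 2 had 1 higher and 11 lower, with a median of -0.21. Of all tested genes, 8.79% were called higher and 6.46% lower in clone 1, and 7.89% and 7.08% in clone 2. Tested targets that did not pass between the clones included Bax (log2 -0.05, adjusted p = 0.764) and Bbc3 (-0.28, adjusted p = 0.343), both of the mitochondrial death pathway.

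**Figure D3:**
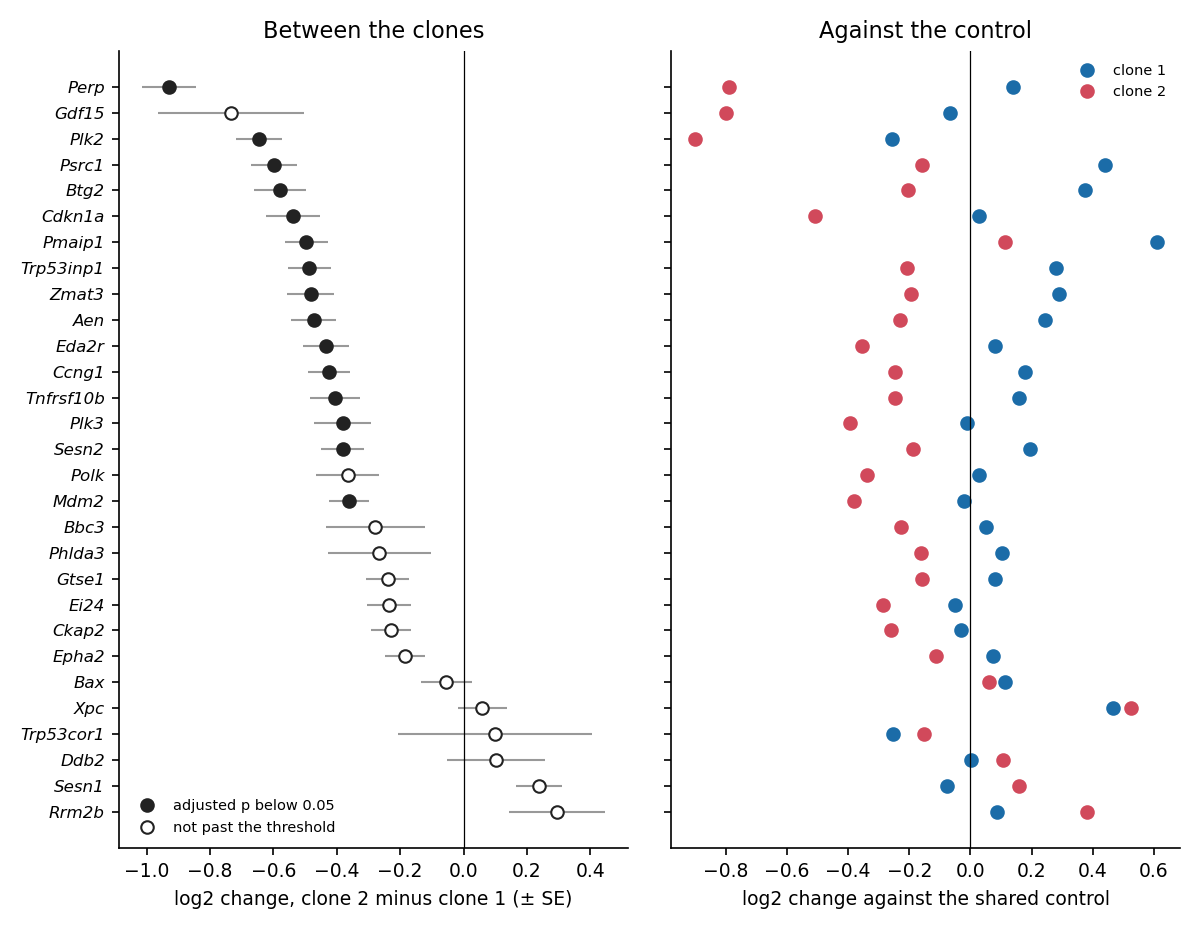
The 29 tested p53 targets: left, log2 change from clone 1 to clone 2 with its SE (filled, adjusted p below 0.05); right, log2 change of clone 1 (blue) and clone 2 (red) against the shared control. The 15 filled points are all below 0, and the list median is -0.38.

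A search found, in 3 of these promoters, a sequence like the p53 consensus, a pair of adjoining 10-letter units. RefSeq windows of 250 bases before a start were at hand for 10 of the 15 called targets. A match, searched as a palindromic pattern that reads the same on both strands, kept the invariant C and G of each unit and allowed 3 mismatches in 20 letters. It was present in 3 of the 10 and in 1.59% of the 11292 tested genes with a window. A gene with more than 1 window was scored by its best window. The 10 come from a list of known p53 targets, so these shares do not bear on the difference between the clones. The rule was set after the sequences were seen. Sites with 20 bases on either side are given on the strand of the gene, GRCm38.p6, with the match in capitals; for Aen the match alone is shown:
Cdkn1a (chr17:29090908-29090967, plus strand, 1 mismatch): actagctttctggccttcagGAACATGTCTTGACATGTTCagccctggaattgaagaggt
Ccng1 (chr11:40755442-40755501, minus strand, 1 mismatch): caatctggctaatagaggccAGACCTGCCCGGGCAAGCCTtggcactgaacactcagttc
Aen (chr7:78895937-78895956, plus strand, 3 mismatches): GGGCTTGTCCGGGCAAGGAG
A match is a likeness of letters, and binding of p53 was not measured here.

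Immediate early genes, which respond within minutes to growth factors and stress, also shifted down in part. Of 26 tested, 7 were lower in clone 2 (26.9%, beside 3.86% of all tested genes) and 0 higher, with a median log2 change of -0.18. Klf6, a zinc finger factor, was at 92.9 and 98.8 CPM in the control, 75.0 and 85.8 CPM in clone 1, and 50.8 and 55.4 CPM in clone 2 (log2 -0.60, SE 0.085, adjusted p = 0.00314). Ccn1, a matricellular protein gene, was at 113 and 116, 113 and 119, and 78.9 and 75.6 CPM (log2 -0.59, SE 0.068, adjusted p = 0.00114). In both, clone 2 was the low clone. Nr4a1, an orphan nuclear receptor gene, differed through clone 1, at 31.8 and 36.5 CPM in the control, 51.3 and 48.9 CPM in clone 1, and 34.5 and 36.4 CPM in clone 2 (log2 -0.50, adjusted p = 0.00531). The others were Btg2, which is also on the p53 list, Jun, Btg1 and Ccn2, at log2 -0.51, -0.41 and -0.37 for the last 3. The count of 7 was 3, 4, 3 and 4 in the fit with the control on leaving out clone 1 replicate 1, clone 1 replicate 2, clone 2 replicate 1 and clone 2 replicate 2, and Klf6, Ccn1 and Btg2 held in all 4.

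Genes that the ERK pathway turns on to restrain itself had 3 of 23 lower (13%, beside 3.86% of all tested genes) and 0 higher, and 1 of the 3 calls held without any 1 library, with the MEK inhibitor present in all cultures. Phlda1 was at 38.6 and 36.5 CPM in clone 1 and 24.2 and 22.5 CPM in clone 2, with 33.8 and 41.4 CPM in the control (log2 -0.69, SE 0.088, adjusted p = 0.00202), and held without any 1 library. Spry2, a receptor signalling inhibitor, was at 98.1 and 95.1 CPM in clone 1 and 73.4 and 60.5 CPM in clone 2 (log2 -0.53, adjusted p = 0.00743), a call that ended without clone 2 replicate 2 (adjusted p = 0.0582 in the fit with the control). Dusp6, an ERK phosphatase, was at 73.7 and 88.9 and at 56.3 and 61.4 CPM (log2 -0.47, adjusted p = 0.0172) and ended when clone 1 replicate 2 (0.0841) or clone 2 replicate 1 (0.107) was removed.

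Genes of the cytoskeleton and of cell adhesion had 10 of 40 lower (25%, beside 3.86% of all tested genes) and 0 higher in clone 2, with a median log2 change of -0.13. Anxa3, a calcium-dependent membrane-binding annexin, was at 8.88 and 10.5 CPM in the control, 9.04 and 8.80 CPM in clone 1, and 1.73 and 2.14 CPM in clone 2. Clone 1 overlapped the control and was 4.6 times clone 2 (log2 -2.20, SE 0.19, adjusted p = 0.000217). Cald1, caldesmon, was at 47.0 and 54.1, 64.7 and 72.1, and 42.5 and 40.6 CPM (log2 -0.72, SE 0.081, adjusted p = 0.00112), with clone 1 highest. Vim, vimentin, was at 456 and 494, 682 and 613, and 437 and 459 CPM (log2 -0.53, SE 0.074, adjusted p = 0.00278), and Lgals1, galectin-1, at 78.8 and 83.0, 69.9 and 65.6, and 44.9 and 46.8 CPM (log2 -0.56, SE 0.075, adjusted p = 0.00242). Clone 1 was the highest for Cald1 and Vim, and clone 2 the lowest for Anxa3 and Lgals1.

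The remaining lower members were S100a6 (log2 -1.19), Anxa2 (-0.70), Lmna of the nuclear lamina (-0.60), Anxa5 (-0.45), S100a11 (-0.39) and Epcam (-0.32). Of the 10, 4 lie on chromosome 3, whose genes as a whole were lower in clone 2 (below), and 8 of the list were still called once every chromosome was centred at its median. The count in the fit with the control was 6, 8, 5 and 6 without clone 1 replicate 1, clone 1 replicate 2, clone 2 replicate 1 and clone 2 replicate 2, and Anxa3, Cald1, Vim and Lgals1 held in all 4. Of 15 tested genes of the fibroblast and feeder list, 3 were lower (20%, beside 3.86% of all tested genes), Vim, Tagln and Acta2, and 0 higher. On this list 8 had a negative and 7 a positive log2 change, from -1.24 to 1.04 with a median of -0.15. Tagln and Acta2 are smooth muscle genes, with Tagln at 13.6 and 15.5 CPM in clone 1 and 7.87 and 7.16 CPM in clone 2 (log2 -0.95, adjusted p = 0.00371), and Acta2 at 2.19 and 2.30 and at 0.883 and 1.01 CPM (log2 -1.24, adjusted p = 0.0327). Both were highest in the control, at 19.4 and 22.8 CPM and at 5.12 and 6.91 CPM. The call of Acta2 ended in the fit with the control without each of the 4 libraries in turn, with adjusted p up to 0.122. The summed level of the 29 fibroblast and feeder markers was 1552 and 1442 CPM in clone 1, 1388 and 1347 CPM in clone 2 and 1311 and 1336 CPM in the control. Of the 29, 4 were at 0 in all clone libraries. Vim alone made up a large part of the sum, and its mean fell by more from clone 1 to clone 2 than the sum did. The part of these markers in the differences above was not tested. In bulk RNA, fewer cells of a type and less RNA per cell cannot be told apart.

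Some single genes separated the clones further. A2m, the protease inhibitor alpha-2-macroglobulin, was at 7.86 and 7.93 CPM in the control, 3.30 and 3.88 CPM in clone 1, and 29.6 and 22.8 CPM in clone 2. Clone 2 was 7.29 times clone 1 (log2 2.87, SE 0.17, adjusted p = 1.62e-05), with the control between them. Fstl5, a follistatin-like gene on chromosome 3, was at 0.407 and 0.217 CPM in the control, 10.6 and 9.80 CPM in clone 1, and 1.40 and 1.65 CPM in clone 2. It was high in clone 1, at 6.66 times clone 2 (log2 -2.74, SE 0.19, adjusted p = 4.13e-05). Ddr2, a collagen receptor kinase gene, was at 9.54 and 10.1, 2.26 and 3.02, and 8.11 and 8.21 CPM (log2 1.63, SE 0.19, adjusted p = 0.00115), low in clone 1 only. All 3 calls held without any 1 library.

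Vax2os and its neighbour Vax2, an eye homeobox gene, were higher in clone 2: Vax2os at 2.08 and 2.41 CPM in clone 1 and 7.66 and 7.53 CPM in clone 2 (log2 1.76, SE 0.18, adjusted p = 0.000607), and Vax2 at 0.682 in both libraries of clone 1 and 3.45 and 2.40 CPM in clone 2 (log2 2.09, adjusted p = 0.00489). Vax2os is antisense to its neighbour, and without knowledge of the strand counted their reads cannot be told apart. The call of Vax2 ended without clone 2 replicate 1 (adjusted p = 0.058 in the fit with the control). Sox1, an early neural factor, was at 11.2 and 13.4 CPM in the control, 11.8 and 12.4 CPM in clone 1, and 6.42 and 4.95 CPM in clone 2 (log2 -1.09, SE 0.16, adjusted p = 0.0037), low in clone 2 only, and its call held without any 1 library. Prnp, the prion protein gene, was at 3.20 and 3.22, 4.23 and 4.74, and 1.40 and 1.65 CPM (log2 -1.55, SE 0.23, adjusted p = 0.0037) and held likewise. Hs6st2, a heparan sulfate sulfotransferase gene, was below the control in both DKO clones, at 5.50 and 5.20 CPM in the control, 3.16 and 2.26 CPM in clone 1, and 0.682 and 0.899 CPM in clone 2 (log2 -1.77, SE 0.32, adjusted p = 0.0104).

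Rnf213 and Samd9l, known as interferon targets and named for a small adjusted p and a large change, were low in clone 1. Rnf213, a large ubiquitin ligase gene, was at 60.6 and 54.3 CPM in the control, 24.1 and 21.4 CPM in clone 1, and 60.8 and 61.9 CPM in clone 2. Clone 2 matched the control and was 2.69 times clone 1 (log2 1.43, SE 0.086, adjusted p = 1.78e-05). Samd9l was at 1.89 and 1.92, 0.646 and 0.934, and 3.21 and 2.74 CPM (log2 1.91, SE 0.30, adjusted p = 0.00546). Both calls held without any 1 library. On the list of interferon and nucleic acid sensing genes, 3 of 27 were higher (11.1%, beside 2.66% of all tested genes) and 1 lower (3.70%, near the 3.86% of all tested genes). Of the 27, 12 had a negative log2 change. Ifi35 (log2 1.02), Oas1a (1.04) and Irf1, a transcription factor gene (0.52), were higher, and Adar, an RNA editing enzyme on chromosome 3, was lower (-0.34). Their adjusted p-values were 0.0103, 0.0405, 0.0339 and 0.0194, and each of the 4 calls ended without at least 1 library in the fit with the control, with adjusted p up to 0.0638, 0.247, 0.154 and 0.138. Oas1a and Oas1g are near-identical copies, and how reads shared by copies were counted is not given in the sources used here. The median of the list was 0.06.

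Genes of glycolysis and the response to low oxygen had 7 of 39 higher in clone 2 (17.9%, beside 2.66% of all tested genes). Of these 39, 1 was lower (2.56%, beside 3.86% of all tested genes), and the median log2 change was 0.12. Pgk1, phosphoglycerate kinase, was at 160 and 162 CPM in the control, 108 and 125 CPM in clone 1, and 204 and 175 CPM in clone 2 (log2 0.71, SE 0.091, adjusted p = 0.00214), with the control between the clones, and held without any 1 library. Tpi1, triosephosphate isomerase, was at 58.6 and 46.8, 65.3 and 67.7, and 114 and 91.6 CPM (log2 0.63, SE 0.096, adjusted p = 0.00483), highest in clone 2. The others were Slc16a3, a lactate exporter (1.97), Egln3, an oxygen-sensing hydroxylase (1.14), Bnip3 (1.03), Pfkl, a phosphofructokinase (0.45), and Gys1, glycogen synthase (0.35). Clone 2 replicate 1 was the higher of the clone 2 libraries for all 7, as for Slc16a3 with 10.5 and 3.64 CPM against 1.72 and 1.87 CPM in clone 1. The count of 7 was 1 in the fit with the control without that library, 8 without clone 2 replicate 2, and 3 and 2 without clone 1 replicate 1 and 2. Ddit4, a stress-induced inhibitor of mTOR signalling, was lower in clone 2, at 12 and 10.8 CPM in clone 1, 6.46 and 6.07 CPM in clone 2 and 8.26 and 7.74 CPM in the control (log2 -0.86, SE 0.14, adjusted p = 0.00693). The hypoxia target Vegfa did not pass (log2 -0.07, adjusted p = 0.833).

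Germline and meiosis genes went both ways, with 8 of 60 higher (13.3%, beside 2.66% of all tested genes) and 4 lower (6.67%, beside 3.86%) in clone 2. Stra8, which opens meiosis, was at 21.9 and 19.4 CPM in the control, 5.71 and 5.35 CPM in clone 1, and 13.8 and 11.6 CPM in clone 2 (log2 1.20, SE 0.15, adjusted p = 0.00193). Both DKO clones were below the control and clone 1 was the lower. Rpl10l, a ribosomal protein gene of the testis, was at 49.8 and 50.6, 31.0 and 35.1, and 49.8 and 63.7 CPM (log2 0.78, SE 0.11, adjusted p = 0.00372), low in clone 1 only. These 2 held without any 1 library. Dazl, an RNA-binding protein gene of germ cells, fell in steps, from 117 and 104 CPM in the control to 86.7 and 79.9 CPM in clone 1 and 59.3 and 62.9 CPM in clone 2 (log2 -0.45, SE 0.075, adjusted p = 0.00691). Its call ended when clone 1 replicate 1 (adjusted p = 0.0557 in the fit with the control) or clone 2 replicate 1 (0.0806) was removed. The 8 higher genes numbered 6, 4, 3 and 2 in the fit with the control without clone 1 replicate 1, clone 1 replicate 2, clone 2 replicate 1 and clone 2 replicate 2, and the 4 lower genes 1, 3, 0 and 2.

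Of 16 tested mesoderm and primitive streak genes, 3 were higher in clone 2 (18.8%, beside 2.66% of all tested genes), Lefty1, Lefty2 and Eomes. The gene Wnt8a was the 1 lower (6.25%, beside 3.86% of all tested genes). Lefty2, a secreted Nodal antagonist and Nodal target, was at 199 and 188 CPM in the control, 59.5 and 55.8 CPM in clone 1, and 107 and 97.2 CPM in clone 2 (log2 0.83, SE 0.077, adjusted p = 0.000295), and held without any 1 library. Its relative Lefty1 was at 11.7 and 9.48, 3.05 and 2.44, and 5.98 and 4.50 CPM (log2 0.93, SE 0.22, adjusted p = 0.0321). In both genes the order was control, clone 2, clone 1, with no overlap, but the call of Lefty1 ended when clone 1 replicate 2 (adjusted p = 0.109 in the fit with the control) or clone 2 replicate 1 (0.16) was removed. Eomes, a mesendoderm factor, was at 7.13 and 8.45, 11.1 and 10.6, and 19.9 and 17.7 CPM (log2 0.79, SE 0.12, adjusted p = 0.00488), highest in clone 2; without clone 2 replicate 1 its adjusted p was 0.053 in that fit. Wnt8a, a Wnt ligand, had a log2 change of -1.03 (adjusted p = 0.0255), which ended without any but clone 2 replicate 1, with adjusted p up to 0.144. The summed level of the 28 markers was 258 and 249 CPM in the control, 115 and 111 CPM in clone 1, and 182 and 166 CPM in clone 2. Lefty2 alone, at 199 and 188, 59.5 and 55.8, and 107 and 97.2 CPM, made up most of that sum in each library, so the sum largely repeats this 1 gene. Lamb1, a laminin chain of the primitive endoderm list, followed the same order with 43.9 and 41.0, 16.8 and 15.4, and 29.3 and 28.7 CPM (log2 0.85, SE 0.098, adjusted p = 0.00114). That list had 1 of 22 higher (4.55%, beside 2.66% of all tested genes) and 1 lower (4.55%, near the 3.86% of all tested genes).

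Of 43 tested genes of H3K9 methylation and HP1 partners, 1 was lower and 1 higher in clone 2 (4.65% called, beside 6.52% of all tested genes). Setdb1, an H3K9 methyltransferase gene on chromosome 3, was at 207 and 215 CPM in the control, 274 and 259 CPM in clone 1, and 198 and 211 CPM in clone 2 (log2 -0.38, SE 0.068, adjusted p = 0.00962). It was high in clone 1, and once chromosome 3 was centred at its median the difference was -0.20 (adjusted p = 0.126). Lbr, the lamin B receptor that binds HP1, was at 220 and 219, 159 and 169, and 209 and 201 CPM (log2 0.32, SE 0.066, adjusted p = 0.0197), low in clone 1. In the fit with the control the call of Setdb1 ended without clone 2 replicate 1 (adjusted p = 0.081) and that of Lbr without any but clone 1 replicate 2, with adjusted p up to 0.125. The de novo DNA methyltransferase genes went apart: Dnmt3a was higher, at 112 in both control libraries, 82.2 and 86.6 CPM in clone 1, and 121 and 117 CPM in clone 2 (log2 0.50, SE 0.067, adjusted p = 0.00251), and Dnmt3b was lower (log2 -0.29, SE 0.076, adjusted p = 0.047). Dnmt3a held without any 1 library, whereas Dnmt3b did not, with adjusted p up to 0.208.

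Of 38 core and naive pluripotency genes 5 were called (13.2%, beside 6.52% of all tested genes): 2 were higher, Tcl1 (log2 0.54) and Prdm14 (0.47), and 3 lower, Manba (-0.38), Nr5a2 (-0.34) and Tdh (-0.31); each of the 5 calls ended without at least 1 library in the fit with the control. Manba lies on chromosome 3 and Tdh on chromosome 14, which were lower in clone 2 as a whole (below). Both calls ended once every chromosome was centred at its median. None of the 33 Polycomb genes, the 23 DNA replication licensing genes or the 22 clustered protocadherins was called (0 of each by edgeR, beside 6.52% of all tested genes). At that share, lists of this size would hold few calls, so 0 is not read as a result about them. Among 345 tested zinc finger genes named Zfp, 2 were higher and 3 lower (1.45% called, beside 6.52% of all tested genes). Replication-dependent histone genes, of which 50 of 62 had a positive log2 change, had 4 called higher (6.45%, beside 2.66% of all tested genes) and 0 lower with a median of 0.17. That count rested on single libraries: in the fit with the control it was 0 without clone 1 replicate 1, 16 without clone 1 replicate 2, 3 without clone 2 replicate 1 and 0 without clone 2 replicate 2. Of 40 mitosis and centromere genes 4 were higher (10%, beside 2.66% of all tested genes), Cenpe, Cenpf, Mki67 and Hjurp, at log2 0.25 to 0.32. Each call ended without at least 3 of the 4 libraries in turn in the fit with the control.

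**Figure D4:**
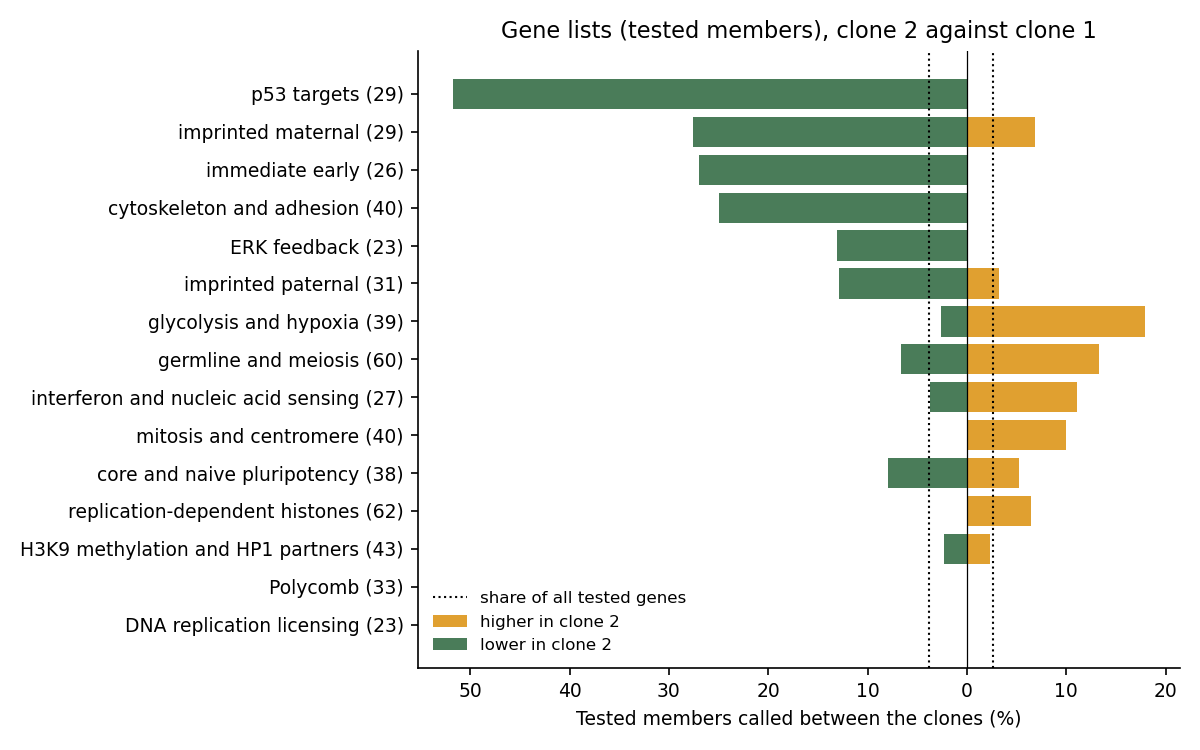
Share of the tested members of 15 gene lists (number tested in brackets) called higher (orange, right) or lower (green, left) in clone 2 than in clone 1; dotted lines mark the shares over all tested genes, 2.66% and 3.86%. The p53 targets reach 51.7% lower, and the Polycomb and replication licensing lists have no bar.

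Whole chromosomes also differed between the clones. The tested genes of chromosome 3 had a median log2 shift of -0.18 in clone 2 against clone 1, set against the median over the whole table. Of these 680 genes, 121 were called lower (17.8%, beside 3.86% of all genes) and 5 higher (0.735%, beside 2.66%). Against the mean of the control the chromosome stood at 0.30 and 0.27 in the clone 1 libraries and at 0.10 and 0.08 in those of clone 2. Clone 1 was the farther from the control for 99 of the 121 lower genes. Among the most highly expressed called genes, Rps3a1, a ribosomal protein gene, was at 2907 and 2474 CPM in clone 1 and 2106 and 1838 CPM in clone 2, with 1864 and 2063 CPM in the control (log2 -0.45, adjusted p = 0.0176), and Selenot, a selenoprotein gene, at 501 and 493 CPM in clone 1 and 387 in both clone 2 libraries, with 329 and 312 CPM in the control (log2 -0.36, adjusted p = 0.00979). These calls ended in the fit with the control without clone 1 replicate 1 (Rps3a1, adjusted p = 0.13) or clone 2 replicate 2 (Rps3a1, 0.178; Selenot, 0.0672) and, for Selenot, clone 2 replicate 1 (0.065). Along chromosome 3 the shift in bins of 10 Mb ranged from -0.34 to 0.03, and the bin from 20 Mb to 30 Mb, with 13 genes, was the 1 bin with a positive value.

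Chromosome 14 had a shift of -0.10, and it was uneven along the chromosome. From 40 Mb on, 340 tested genes had a median shift of -0.16, with 44 called lower (12.9%, beside 3.86% of all tested genes) and 0 higher. There the libraries of clone 2 stood at -0.20 and -0.18 against the control, while those of clone 1 stood at -0.04 and -0.03. Below 40 Mb the 147 tested genes had a shift of 0.07, with 6 lower (4.08%, near the 3.86% of all tested genes) and 10 higher (6.80%, beside 2.66%). The boundary was set after the bins were seen. Of the 50 lower genes of the chromosome, 31 had clone 2 farther from the control and 19 clone 1. Nefm, a neurofilament gene there, was at 134 and 133 CPM in clone 1 and 80.1 and 79.9 CPM in clone 2, with 69.6 and 76.9 CPM in the control (log2 -0.74, SE 0.065, adjusted p = 0.00024), so it differed through clone 1. Chromosome 6 was high in both clones, at 0.46 and 0.44 against the control in clone 1 and 0.51 and 0.50 in clone 2. It differed between the clones by 0.07, with 43 of 689 genes higher (6.24%, beside 2.66% of all tested genes) and 24 lower (3.48%, beside 3.86%). The 8 tested genes of chromosome Y had a shift of 0.19, and Kdm5d was the 1 called (log2 0.35, adjusted p = 0.0385), a call lost in the fit with the control without any of the 4 libraries (adjusted p up to 0.37). Outside chromosomes 3, 14 and Y, 365 genes were higher and 383 lower, so the excess of lower genes lay mostly on chromosomes 3 and 14. DNA copy number was not measured.

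**Figure D5:**
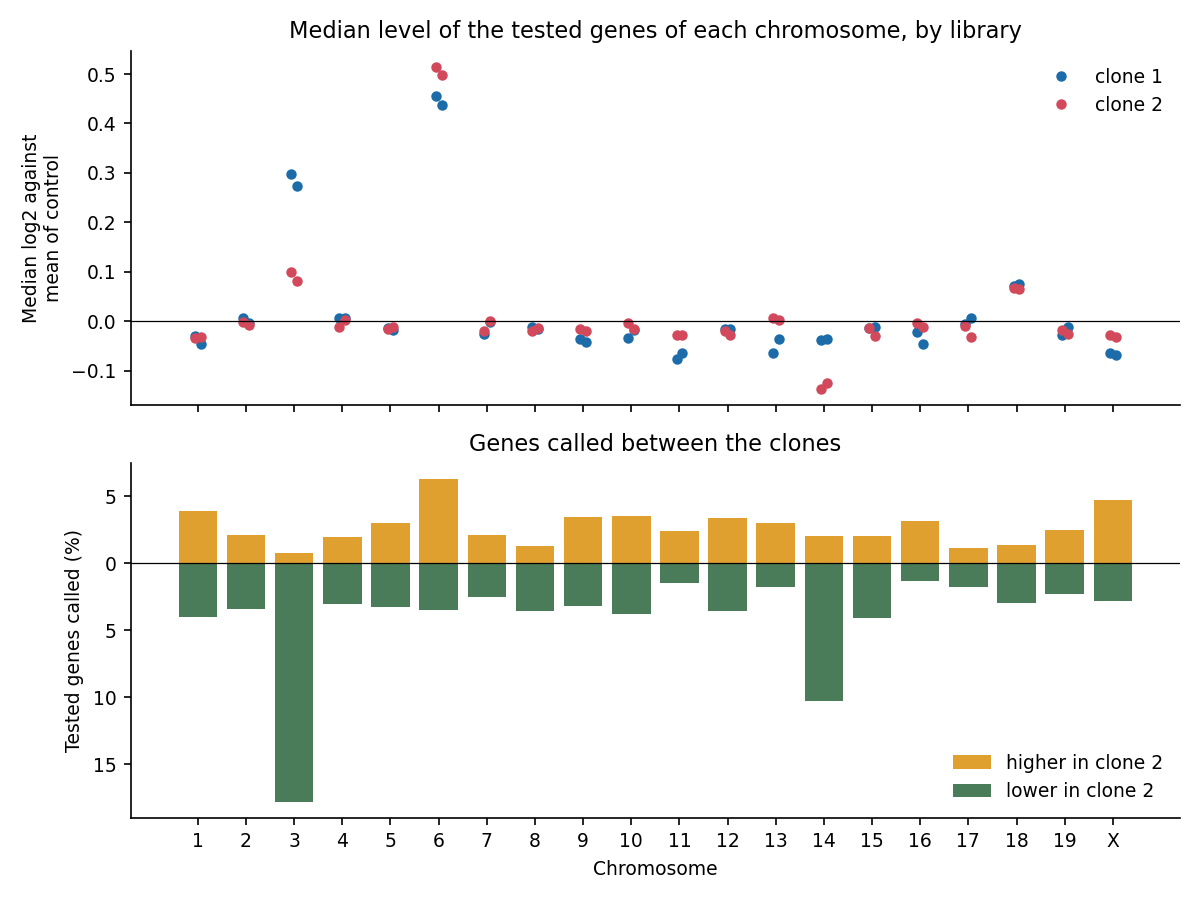
Top, median log2 level of the tested genes of each chromosome in each clone library against the mean of the control (clone 1 blue, clone 2 red); bottom, share of tested genes called higher (orange, up) or lower (green, down) in clone 2. Chromosome 3 stands at 0.30 and 0.27 in clone 1 and 0.10 and 0.08 in clone 2, and chromosome 14 is lower in clone 2; chromosome Y, with 8 genes, is not drawn.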

How the data were processed

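The authors deposited raw read counts per Entrez gene for 6 libraries, made from RNeasy-purified, DNase-treated RNA with the ScriptSeq v2 kit, per the labels' protocols. Reads were aligned with STAR 2.5.0a to mm10 (GRCm38), per the submitters' processing notes; no source used here gives the counting tool, the annotation or the strand. Of 24467 gene IDs, 24437 matched the RefSeq gene table of GRCm38.p6, the source of symbols and positions; reads on the 30 others were 0.389 to 1.62% of a library. Mitochondrially encoded genes were not analysed here.

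Counts were analysed in R 4.3.3. The main test was the two-sided quasi-likelihood F test of edgeR 4.0.16 on the 4 clone libraries (filterByExpr, which left 14337 genes; TMM factors over 6 libraries, 0.992 to 1.01; 2 residual degrees of freedom), with Benjamini-Hochberg adjustment over all tested genes and a threshold of 0.05. Each clone against control used a 3-group fit of 14771 genes. SEs come from the F statistic, and CPM is scaled by TMM. With 2 against 2 samples an exact permutation test cannot go below p = 0.333, so none is given. Alternatives used DESeq2 1.42.0, limma-voom (limma 3.58.1), other scaling and filters, a replicate block and left-out libraries. In simulated data with 14125 genes, 200 genes were changed. The test of clone 2 against clone 1 found 69% of the genes set to 1.5-fold and 90% of those set to 2-fold, and 9.14% of 175 calls were false. The changed genes were drawn above a minimum count, so these rates do not cover genes with few reads. The share of false calls belongs to that number of changed genes. The test of pairing gave correlations between same-numbered libraries of 0.08 for the clones, so replicate numbers were not used as pairs.

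Named genes are the HP1 genes, the 15 largest changes per direction at 2 CPM or more, the 10 smallest adjusted p per direction at 10 CPM or more, up to 4 called members per list and up to 6 called genes of each chromosome shifted by over 0.1; part of them is printed. Other genes, most of them list members, were chosen after their values were seen. The comparison and the 41 gene lists were chosen with earlier results of these data known, and the lists were described by counts and medians without a set test.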

Additional observations from a re-analysis of the deposited data

Results flagged for a closer look

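Because both clones share the control, the difference between their changes against it is the comparison of clone 2 with clone 1 itself, with its 935 called genes, and adds no second result. For 12 of them the clones were called against the control in opposite directions. Over all tested genes there were also 12 such genes (0.0837%). Clone 2 was above and clone 1 below the control for Ctsc, Emb, Ly75, Ccl25, A2m and Trim44, and the reverse held for Grik3, Pde7a, Bnc2, Trp53i11, Aen and Rap2b. Ly75, an endocytic receptor gene, was at 53.5 and 46.1 CPM in the control, 36.3 and 34.0 CPM in clone 1, and 75.9 and 75.6 CPM in clone 2 (log2 1.11, SE 0.075, adjusted p = 4.13e-05). Ctsc, the protease cathepsin C, was at 45.3 and 47.9, 28.1 and 28.2, and 61.6 and 55.6 CPM (log2 1.06, SE 0.083, adjusted p = 0.000111), and the chemokine Ccl25 at 16.2 and 16.4, 7.93 and 9.05, and 21.0 and 22.4 CPM (log2 1.35, SE 0.13, adjusted p = 0.000295). No library of one clone overlapped another clone in these 3 genes, but choosing genes called on opposite sides of the control largely fixed that.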

How the results depend on the processing

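Every called gene with a value kept its sign in each alternative, the 142 named genes that were called among them. The alternatives refit the same libraries or part of them, and the genes were chosen as called there. A kept sign was thus largely fixed in advance. The higher and lower counts were 381 and 554; in other settings that moved by over 1.5 times they were 163 and 244 without a filter on low counts, and 348 lower without chromosomes 3, 14 and Y (added after the data were seen). With replicate number as a block 637 were higher and 816 lower; the numbers are not known to pair samples. For clone 2 against control the correlation of same-numbered deviations was -0.38, and a crossed block, added afterwards, called 1350 higher and 1244 lower. Leaving out 1 library gave 0 to 236 higher and 0 to 344 lower genes in the clones alone. With the control in the fit (added afterwards) the higher and lower counts on removing clone 1 replicate 1 were 156 and 238, for clone 1 replicate 2 they were 242 and 339, for clone 2 replicate 1 they were 115 and 155, and for clone 2 replicate 2 they were 128 and 166. The ranges were 798 to 1199 and 494 to 854 for clone 1 against control, and 656 to 1197 and 467 to 1104 for clone 2 against control. Median shifts over left-out libraries were -0.19 to -0.18 (chromosome 3), 0.064 to 0.089 (6), -0.11 to -0.089 (14), -0.17 to -0.15 (14 from 40 Mb) and 0.10 to 0.36 (Y); with genes of 10 CPM or more, chromosome 14 stood at -0.10. List counts over left-out libraries were 0 to 14 (p53 targets lower), 0 to 5 (imprinted maternal lower), 0 to 8 (cytoskeleton lower), 0 to 8 (glycolysis higher), 0 to 5 (immediate early lower), 0 to 6 and 0 to 3 (germline higher and lower) and 0 to 18 (histones higher; 16 with the control in the fit and without clone 1 replicate 2). Without a filter they were 5 imprinted maternal, 6 cytoskeleton, 2 glycolysis, 4 and 1 germline and 0 histone genes, and 2 histone genes with chromosomes centred. The median of the imprinted maternal list was 0.0083 without clone 1 replicate 2. No filter ended 48 of the named calls, DESeq2 13, chromosome centring 22 and the 3-group fit 7. The cause was not tested. In every fit to the clones alone that leaves out 1 library, of clone 1 or of clone 2, 1 residual degree of freedom remains.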

Other observations

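Lars2, a mitochondrial leucyl-tRNA synthetase gene, was called higher in clone 2 (log2 3.12, SE 0.80, adjusted p = 0.0429) on the strength of 1 library. It was at 10453 and 997 CPM in the control, 125 and 176 CPM in clone 1, and 180 and 2443 CPM in clone 2. Without clone 2 replicate 2 its adjusted p was 0.639, and 0.931 in the fit with the control. The share of reads on unmatched gene IDs was highest in the same libraries, 1.62% in control replicate 1 and 0.744% in clone 2 replicate 2, against 0.389 to 0.484% in the other 4 libraries.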
